A study of Mus musculus with 384 samples.

Results

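The cells described here are non-cycling neutrophils that carry the transcripts of specific granule proteins at high levels, 118 of 285 neutrophils among 326 individually sequenced mouse cells. Members were chosen from their own RNA by 3 criteria. The summed abundance of 10 neutrophil genes had to reach 20000 TPM, the length-corrected abundance that sums to 1000000 in each cell. The granule score, which is the mean log2(TPM + 1) of Camp, Ngp, Ltf, Lcn2, Chi3l3, Cd177, Itgb2l and Mmp8, had to reach 10.5. Fewer than 5 of 16 cell cycle genes could be above 0. Because these 30 genes in all chose the cells, their values are given as a description without a test.

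All cells came from spinal cords of mice with a knockout of Optn, the gene of optineurin, an autophagy receptor, and no other genotype was analysed here, so the knockout's effect was not measured. Age, sex and strain are not in the labels, and neither is a treatment. Cells stained for CD45, CD11b and CX3CR1 were sorted singly into plates and sequenced by SmartSeq2, which copies whole transcripts and adds no molecular identifiers. Replicate 1 (plates 1 and 2) and replicate 2 (plates 3 and 4) are not stated to be separate mice, so p-values measure only the spread between these 2 samples, which may be technical. Of 384 labelled cells, 326 have a column in the table. The series title calls the cells microglia, but in the 118 members the microglial genes P2ry12, Sall1, Fcrls and C1qa were listed at 0 and Tmem119 was above 0 in 1 cell. Ptprc, which encodes CD45, was above 0 in 115 members and Itgam, which encodes CD11b, in 117. Optn was listed at 0 in 118 of 118 members, which allows a share of up to 2.54% of cells with a value above 0 (3 of 118 cells, taken as the limit for a count of 0).

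Neutrophils fill their granules in a fixed order as they mature in bone marrow. Azurophil granule proteins such as myeloperoxidase and elastase are made first in promyelocytes, specific granule proteins such as lactoferrin next in myelocytes and metamyelocytes, and gelatinase granule proteins last, and each set of transcripts is lost once its stage has passed. Mature neutrophils keep the proteins but hold little of the specific granule mRNA, and they gain the receptors and cytokine transcripts of an inflammatory cell. C/EBP epsilon, a leucine zipper transcription factor, is needed for specific granules to form, and PU.1 is the ETS factor of the myeloid lineages.

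In replicate 1, 51 of 130 neutrophils were members, a share of 39.2% (exact 95% binomial interval 30.8 to 48.2%). In replicate 2, 67 of 155 were, a share of 43.2% (35.3 to 51.4%). The mean was 41.2% ± 2.82 (SD, n = 2), and the 4 plates held 30, 21, 36 and 31 members. The intervals overlap and cover counting error only. The other 167 neutrophils comprised 70 non-cycling cells of intermediate granule score (5 up to the threshold), 75 non-cycling cells of lower score and 22 cycling cells with 5 or more of the cell cycle genes above 0.

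The granule score of the members ranged from 10.58 to 14.11 with a median of 13.14. The members just inside the threshold scored 10.58, 10.82 and 10.84, and the non-cycling cells just outside it 10.47, 10.28 and 9.88. Within 0.5 of the threshold lay 5 members above and 2 other cells below. Few cells therefore sit at the boundary, although the class is a range of a score and not a cluster. Among the 16 cell cycle genes, 16 members had none above 0, 55 had 1, 25 had 2, 16 had 3 and 6 had 4.

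**Figure D1:**
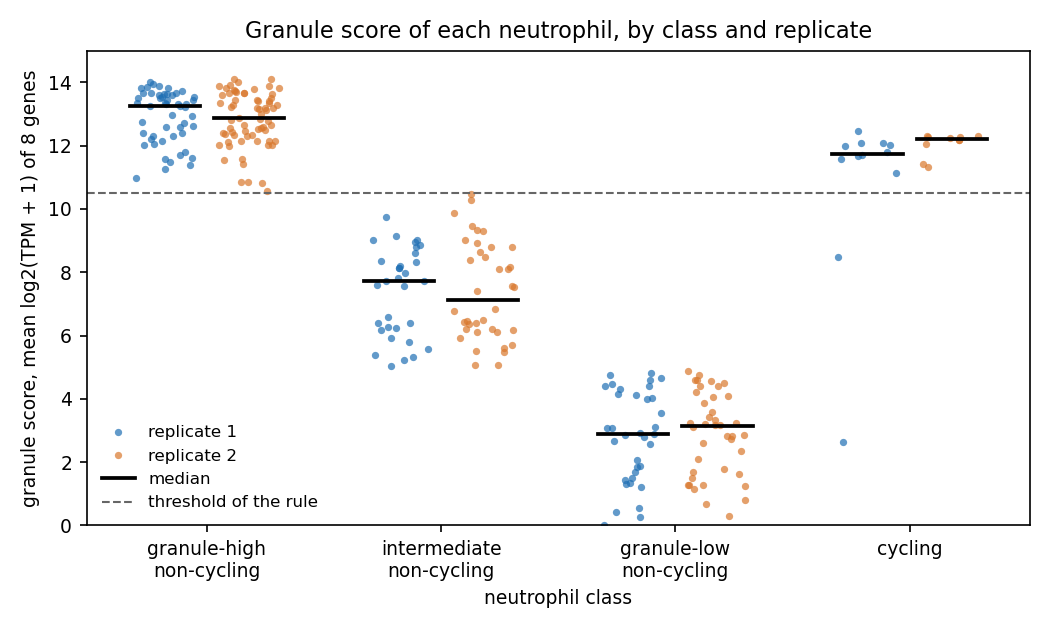
Granule score (mean log2(TPM + 1) of 8 granule genes, y axis) of each of the 285 neutrophils in the 4 classes (x axis), with 1 point per cell coloured by replicate, a bar at each median and a dashed line at the threshold of 10.5. The members span 10.58 to 14.11, and most cycling neutrophils also lie above the line.

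Members had more genes above 0 than most other neutrophils, with a median of 1940 genes per cell (1087 to 2697). The median was 1506.5 in intermediate cells, 1352 in granule-low cells and 2797 in cycling cells. TPM is relative to all RNA of a cell and keeps no read depth. The genes of the rule took 35.4% of all TPM in the members and 20.7% in the other neutrophils, which lowers the share left for every other gene. More genes were thus seen per member, while a larger share of their RNA lay on the genes that chose them. A ribosomal RNA precursor, Rn45s, took 10% or more of TPM in 4 members and in 2 other neutrophils.

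The regulatory sequence next to the 8 granule genes is shown because they define the class and because factors needed for granule formation are known. Camp, Ngp and Ltf lie on chromosome 9 of GRCm38 within 1.195 Mb, from 109847379 to 111042767. In the 250 bases before the RefSeq gene start (GRCm38.p6), the C/EBP pattern TTNNGCAA, searched on both strands (TTGCNNAA on the reverse), occurred in 4 of 8 genes, against 9.56% of 32851 promoters. The 4 windows that hold it are printed 5′ to 3′ on the gene's strand, with the matches in capitals. They are chr9:110419558-110419807 (Ngp, plus strand), chr9:111019042-111019291 (Ltf, plus), chr2:32387740-32387989 (Lcn2, minus) and chr9:7558179-7558428 (Mmp8, plus).
Ngp: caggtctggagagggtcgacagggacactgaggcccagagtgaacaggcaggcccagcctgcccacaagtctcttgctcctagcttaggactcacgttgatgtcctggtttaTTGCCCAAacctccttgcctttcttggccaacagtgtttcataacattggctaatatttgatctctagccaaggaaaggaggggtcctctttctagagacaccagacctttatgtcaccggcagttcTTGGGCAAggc
Ltf: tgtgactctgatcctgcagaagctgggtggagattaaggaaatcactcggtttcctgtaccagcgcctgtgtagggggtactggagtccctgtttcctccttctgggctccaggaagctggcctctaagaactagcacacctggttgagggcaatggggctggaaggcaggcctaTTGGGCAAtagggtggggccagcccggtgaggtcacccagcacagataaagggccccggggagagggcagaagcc
Lcn2: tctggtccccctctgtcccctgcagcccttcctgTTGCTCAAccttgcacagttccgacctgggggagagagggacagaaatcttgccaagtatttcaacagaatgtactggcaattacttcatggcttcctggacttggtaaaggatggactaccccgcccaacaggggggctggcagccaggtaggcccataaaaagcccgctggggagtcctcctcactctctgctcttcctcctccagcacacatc
Mmp8: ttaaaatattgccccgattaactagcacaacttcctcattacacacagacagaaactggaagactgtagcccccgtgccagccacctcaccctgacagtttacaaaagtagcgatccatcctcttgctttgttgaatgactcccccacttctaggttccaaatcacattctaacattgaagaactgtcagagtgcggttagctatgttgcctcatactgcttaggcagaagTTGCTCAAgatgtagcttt
Ngp holds 2 matches, whose first bases lie 138 and 11 bases before the start, and in the other genes the single match begins 75 (Ltf), 216 (Lcn2) and 19 (Mmp8) bases before it. Camp, Chi3l3, Cd177 and Itgb2l have no match in this window. The PU.1 pattern GAGGAA, also searched on both strands, occurred in 5 of 8 windows (Ltf, Lcn2, Cd177, Itgb2l and Mmp8), against 23.3% of all promoters. The 2 patterns share no match position in these windows. A match is a description of letters, and no binding was measured.

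Ngp, which encodes neutrophilic granule protein, was the most abundant granule transcript of the members, with mean TPM of 66872, 68044, 69736 and 68059 in plates 1 to 4. Ltf, which encodes the iron-binding protein lactoferrin, averaged 26763, 22240, 22996 and 24832 TPM. Camp, which encodes the antimicrobial cathelicidin, averaged 27863, 24402, 24256 and 18516 TPM. These plate means sit close together, while single members ranged from 402 to 66290 TPM for Ltf and from 828 to 66796 TPM for Camp. Lcn2, the siderophore-binding lipocalin 2, averaged 28691, 26830, 26053 and 26950 TPM, and its lowest member held 4527 TPM. Ngp, Ltf, Camp, Lcn2 and Cd177 (a surface receptor stored in specific granules) were above 0 in 118 of 118 members.

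The 8 genes did not separate the members from the rest in the same way. Ltf was far lower in intermediate cells, with plate means of 78.5, 1.25, 585 and 176 TPM. Lcn2 fell off more gently along the classes, at 11747, 11499, 11128 and 14174 TPM in intermediate cells and 2123 to 2615 TPM in granule-low cells. Mmp8, the collagenase of the later granules, was as high in intermediate cells (7349 to 11107 TPM by plate) as in members (8238 to 10201 TPM). In cycling cells its plate means were 1816, 0.460, 0 and 0.458 TPM. Chi3l3, a chitinase-like protein, went the other way, with 6400 to 9373 TPM in members and 11434 to 24907 TPM in cycling cells. Mmp8 thus differed between members and cycling cells, and Ltf and Chi3l3 between members and the intermediate class. The score that divides members from intermediate cells averages these genes, so this is a description only.

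**Figure D2:**
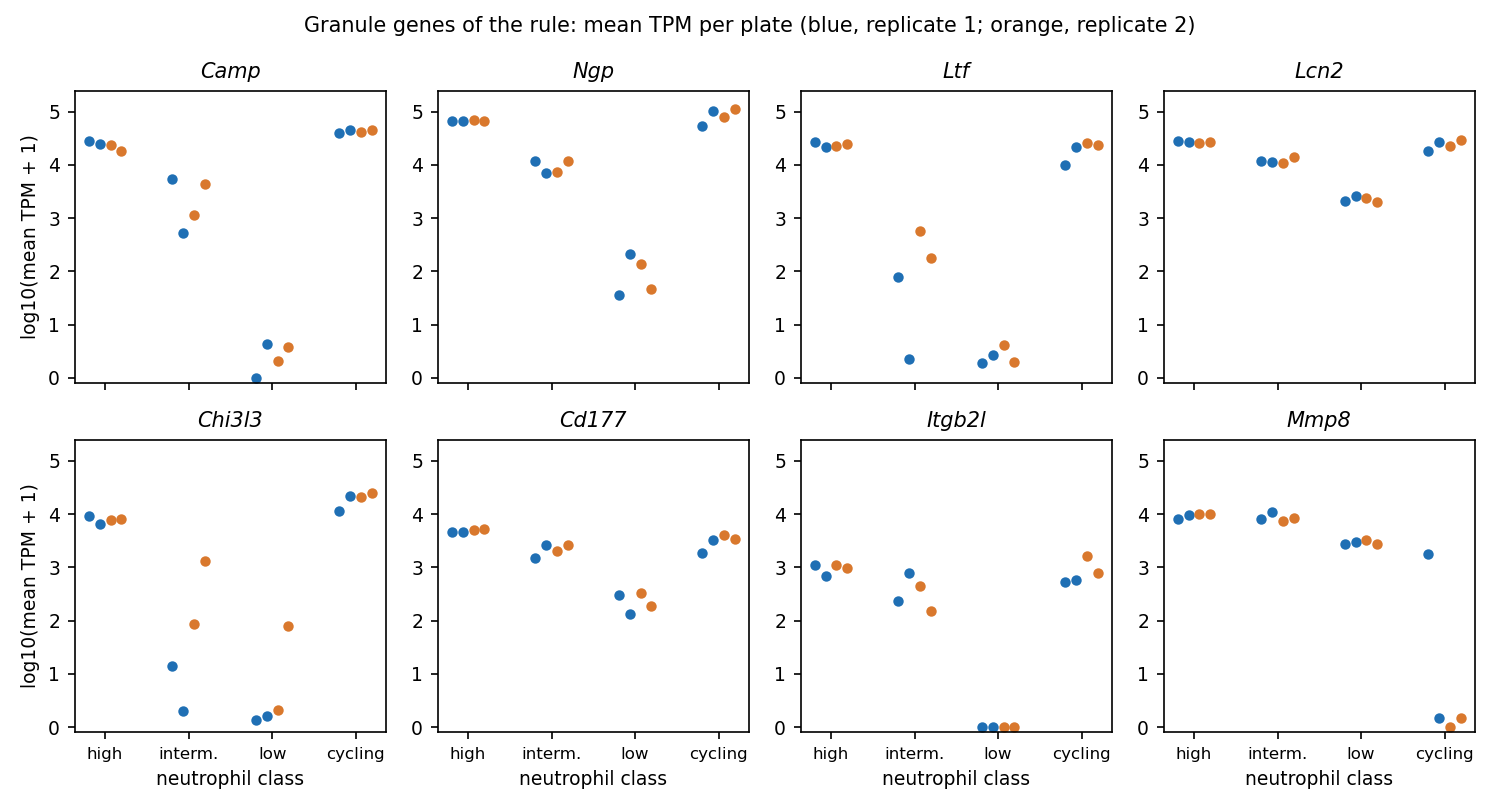
Mean TPM of the 8 granule genes of the rule, as log10(mean TPM + 1) on the y axis, in the 4 neutrophil classes on the x axis, with 1 point per plate (blue for replicate 1, orange for replicate 2). Camp, Ngp, Ltf and Chi3l3 are high in members and cycling cells, whereas Mmp8 is high in members and intermediate cells.

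Single members were not alike in these genes, and Spearman correlations over members within each plate describe how they differed. The cells of a plate share library preparation, and the genes share the score that chose the cells. Camp went with Chi3l3 (mean rho over the 4 plates 0.74, 118 members) and with Ngp (0.74). The same cells were low in the later genes: rho was -0.73 for Camp against Retnlg (resistin-like gamma), -0.70 against Mmp9 (gelatinase B) and -0.67 against Cxcr2, the receptor for neutrophil-recruiting chemokines. Mmp8 went with Mmp9 (0.70), Retnlg (0.67) and Cxcr2 (0.60), and against Chi3l3 (-0.59). Each pair named had the same sign in all 4 plates. All of these genes were used by the rule, and a minimum on the mean of 8 of them can itself set genes against each other among the chosen cells, so the correlations are a description only.

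Mmp8 was above 0 in 108 members, Chi3l3 in 111 and Retnlg in 105, and 101 members held both Mmp8 and Chi3l3. Fcnb, which encodes ficolin B, a lectin of early granules, was above 0 in 17 members, and all 17 also held Chi3l3. Mpo, Elane, Prtn3 and Ctsg, the azurophil granule genes of promyelocytes, were nearly absent, with any of the 4 above 0 in 1 member. Mpo and Ctsg were listed at 0 in every neutrophil, so they do not separate the classes. Elane and Prtn3 were listed at 0 in all 70 intermediate and all 75 granule-low cells, and were above 0 in 4 and 6 cycling cells. The members thus held almost no azurophil transcript, which the other non-cycling classes shared. Mmp8, Chi3l3 and Retnlg were used by the rule, so their presence follows from the choice of cells.

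Genes outside the rule also varied with Chi3l3 or Mmp8 among the members. With Chi3l3 went H2afz, a histone H2A variant (mean rho 0.67), Lta4h, the leukotriene A4 hydrolase (0.66), Cd81, a tetraspanin (0.59), and the lysozymes Lyz1 (0.55) and Lyz2 (0.55). Against it went S100a11, a calcium-binding protein (-0.66), the class I gene H2-D1 (-0.63), the lectin receptor gene Clec4d (-0.60) and Dusp1, a feedback phosphatase of MAP kinases (-0.60). With Mmp8 went Selplg, the adhesion molecule PSGL-1 (0.60), Tpm4, a tropomyosin (0.59), and Fpr1, the formyl peptide receptor (0.57). These genes are among the highest of all correlations computed and were not tested as groups. The number of genes above 0 also moved with both (mean rho 0.49 with Chi3l3 and -0.27 with Mmp8), and its part in these correlations was not tested.

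**Figure D3:**
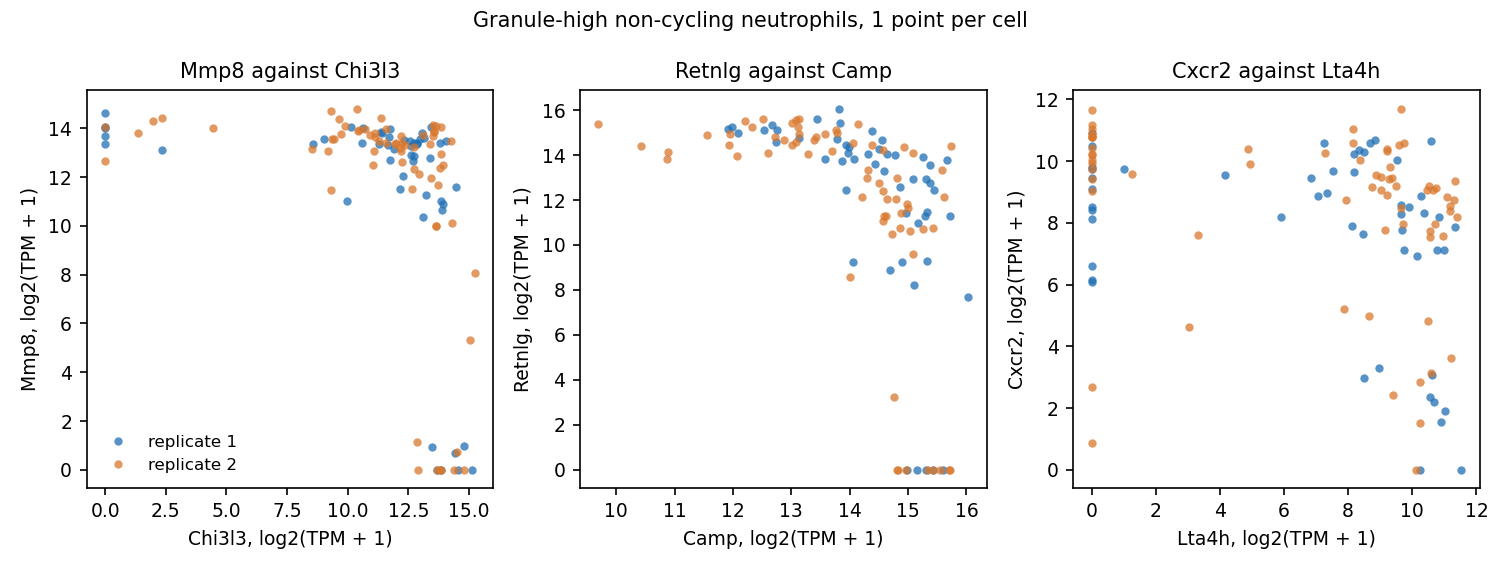
The 118 members, 1 point per cell in log2(TPM + 1), for Mmp8 against Chi3l3, Retnlg against Camp, and Cxcr2 against Lta4h, with replicate 1 in blue and replicate 2 in orange. Members at or near 0 for Mmp8 or Retnlg lie in the upper part of the range of Chi3l3 or Camp, together with members that hold both genes, and both replicates cover the whole range.

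To find which other genes differed, TPM was averaged over the members and over the other neutrophils of each replicate and compared with limma, with the replicate as a block. Genes correlated with the granule score across cells are selected along with it, so the test asks only whether a difference repeats in both replicates relative to the spread that limma pools over genes. Of 3997 genes tested, 221 (5.53%) were higher in the members and 594 (14.9%) lower at an adjusted p under 0.05, and the median log2 difference of all tested genes was -0.25. With TPM rescaled after leaving out the rule's genes and Rn45s, the split was 244 higher and 269 lower with a median of 0.05. With log values averaged over cells it was 731 higher and 201 lower with a median of 0.28. The same direction was called in all 3 forms for 200 of the higher genes and 173 of the lower ones. The counts lean on that pooling: limma without its trend and robust options called 3 higher and 35 lower, the fit without the replicate block called 127 higher, and leaving out plate 3 left 64 higher and 246 lower. All log2 differences are on the log2(mean TPM + 1) scale, which understates the change of low genes. For most genes the SE and adjusted p of this comparison come from the variance shared by genes of like level rather than from a gene's own spread.

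Among the higher genes named, Acvrl1, a type I receptor of the TGF-beta family for BMP9 and BMP10, averaged 118 and 112 TPM in the members of replicates 1 and 2, against 5.59 and 10.9 TPM in the others (log2 difference 3.70, SE 0.55, adjusted p 7.5e-10). It was above 0 in 37 members, 8 intermediate cells, 0 granule-low cells and 1 cycling cell. The gene was thus on in a minority of members but seldom elsewhere. Among the other neutrophils it fell short of the filter's 10%, so it passed through the members. It was also given as a marker of the class, so its value is a description and no support. The single highest member held 7.35% of all Acvrl1 TPM of the class.

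Zmpste24, the metalloprotease that matures prelamin A, was the most abundant of the named higher genes, with 229 and 264 TPM in members against 30.0 and 26.9 TPM (3.07, SE 0.39, adjusted p 2.7e-13). It was above 0 in 44.9% of members and in 20 of the 167 others. The named genes also held Mlst8, a subunit of the mTOR complexes (58.8 and 70.5 TPM against 4.54 and 4.93), Mrpl45, a mitochondrial ribosomal protein (38.1 and 35.2 against 1.16 and 5.05), and Timm17a, a subunit of the inner membrane translocase (72.0 and 85.4 against 2.39 and 24.2). Got1, the cytosolic aspartate aminotransferase, Nucb2, a calcium-binding secretory protein, and Fbxo10, a ubiquitin ligase subunit, were higher by 2.97, 3.04 and 2.83 on the log2 scale. Sh3bgrl, 9830166K06Rik and A630001G21Rik differed by 3.27, 3.38 and 3.26. The higher genes named here rose in 4 of 4 plates, which the naming rule required. Each was above 0 in a minority of members (21.2 to 46.6%). Over all other neutrophils together, Mlst8 and Mrpl45 averaged less than the filter's 5 TPM. They passed through the members, so their values are a description and no support. Other named higher genes may have passed in the same way.

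Several of these rest on few cells. The top member held 26.5% of the class's Timm17a and 23.1% of its Sh3bgrl, and Sh3bgrl averaged 87.8 TPM in members of replicate 1 but 22.8 TPM in those of replicate 2. Without its top cell in each replicate, Timm17a averaged 37.6 and 49.0 TPM.

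Atf3, a stress-induced transcription factor, was listed at 0 in 118 of 118 members, against means of 484 and 337 TPM in the other neutrophils. Its mean was 889 TPM in granule-low cells, 18.2 TPM in intermediate cells and 0 in cycling cells. Pla2g7, which encodes the acetylhydrolase of platelet-activating factor, averaged 7.50 and 6.18 TPM in members against 799 and 929 TPM (log2 difference -6.79, SE 0.40, adjusted p 9.8e-61). Clec7a, the beta-glucan receptor dectin-1, averaged 2.83 and 14.9 TPM against 621 and 617 TPM (-6.31, SE 0.42), and was above 0 in 6.78% of members and 59.3% of the others. Pla2g7 and Clec7a were low in members of both replicates with no overlap of the replicate means.

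Vnn3 (a vanin pantetheinase), St3gal6 (a sialyltransferase), Tspan13 (a tetraspanin), Marcks (a protein kinase C substrate) and Fgl2 (a fibrinogen-like protein) were lower by -6.40, -6.35, -6.14, -5.40 and -5.09 on the log2 scale. Ifitm1, an interferon-induced membrane protein, and Egr1, an immediate early zinc finger factor, differed by -5.59 and -5.52. Egr1 averaged 761 TPM in granule-low cells and 22.5 TPM in intermediate cells, so most of its difference lies between members and the granule-low class. Sirpb1a (-6.28) and LOC100038947 (-7.27) were also among the 12 named lower genes. Sirpb1a belongs to a family of near-identical copies between which reads can be split, so its value is uncertain.

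**Figure D4:**
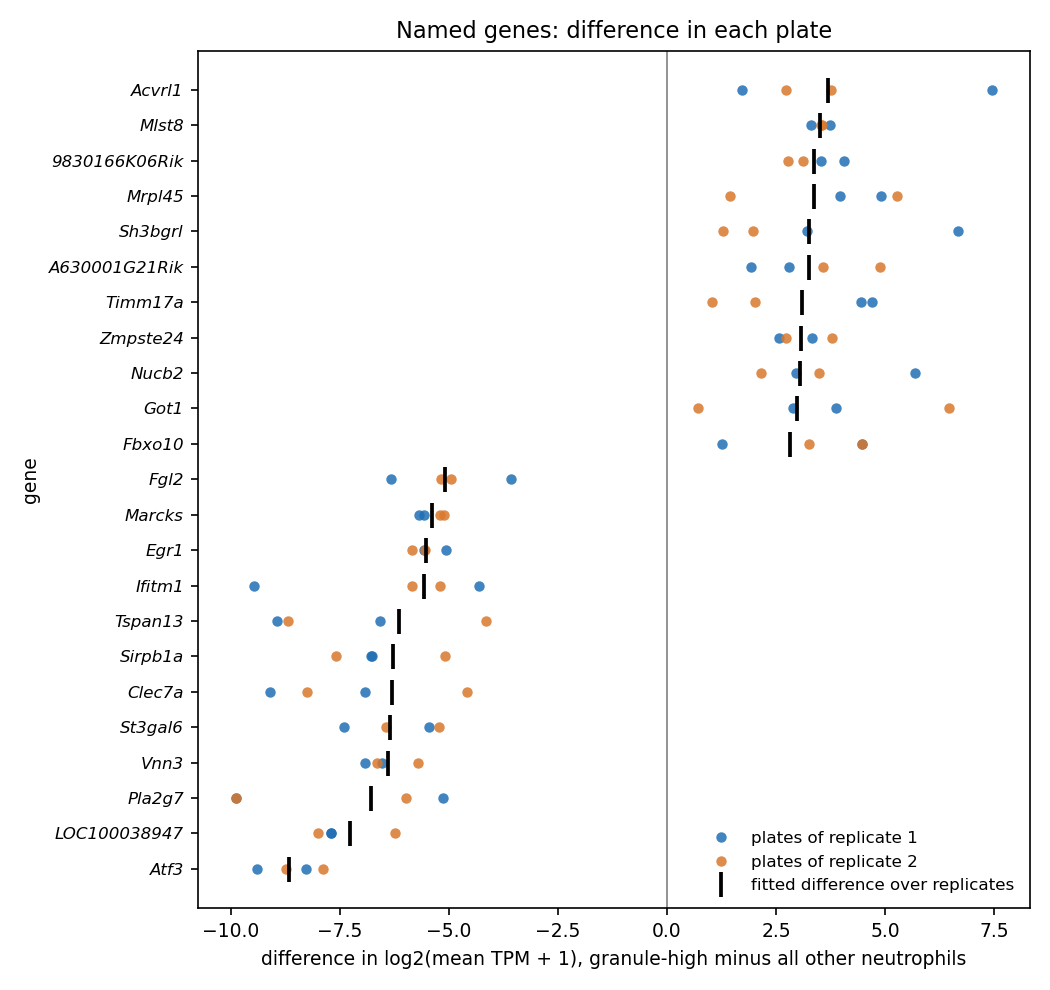
Difference in log2(mean TPM + 1) between members and all other neutrophils (x axis) for the named higher and named lower genes (y axis), with 1 point per plate coloured by replicate and a bar at the fitted difference. All points of a gene lie on one side of 0, as the naming rule required, and Atf3 is listed at 0 in the members of every plate.

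Granule genes outside the rule were mostly higher in the members. Of 22 in the list of specific and gelatinase granule genes, 17 were tested: 9 were higher (against 5.53% of all tested genes) and 5 lower (against 14.9%), with a median log2 difference of 0.39 against -0.25 for all genes. Cybb, the catalytic subunit of the NADPH oxidase that specific granules carry, averaged 1025 and 992 TPM in members against 276 and 257 TPM (1.92, SE 0.20). Serpinb1a, an inhibitor of neutrophil elastase, averaged 710 and 676 TPM against 175 and 230 TPM (1.78, SE 0.23). Anxa1, the granule-stored annexin A1, averaged 12023 and 12293 TPM against 3936 and 4367 TPM (1.55, SE 0.07). For Cybb, Serpinb1a and Anxa1 both member means lay above both means of the others, and the list kept its balance with rescaled TPM (10 higher, 3 lower). The lower genes included the cathepsin inhibitors Stfa2l1 (-4.49, SE 0.34) and Stfa2 (-3.36, SE 0.89), near-identical copies whose values are uncertain, and Slc11a1, a metal transporter (-1.61, SE 0.30).

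The order of the classes differed from gene to gene. Serpinb1a averaged 1042 TPM in cycling cells, 110 TPM in intermediate and 45.8 TPM in granule-low cells. Anxa1 averaged 7925 TPM in cycling, 4893 TPM in intermediate and 2378 TPM in granule-low cells. Ceacam10, a CEA-family cell adhesion molecule, averaged 584 and 594 TPM in members (0.99, SE 0.22, adjusted p 8.6e-05) and 493, 165 and 134 TPM in intermediate, granule-low and cycling cells. Serpinb1a therefore ran with the early end of the granule program, and Ceacam10 was lowest in cycling cells.

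Of the 15 azurophil and early precursor genes, 3 were tested: Clec12a, an inhibitory lectin receptor, was higher (0.85, SE 0.28, adjusted p 0.016) and Srgn, the proteoglycan that packs granule proteins, was lower (-2.44, SE 0.11). Of 12 tested granulopoiesis transcription factor genes, 1 was higher and 5 were lower, beside 5.53% and 14.9% of all tested genes. Rescaled TPM gave 1 higher and 2 lower and log values averaged over cells 2 higher and 1 lower, so the list has no stable direction. The higher one was Fosl1, an AP-1 factor, at 65.6 and 121 TPM against 12.1 and 33.6 TPM (2.08, SE 0.50, adjusted p 0.00035), and the lower ones included Nfil3 (-1.65, SE 0.39), Bcl6 (-1.32, SE 0.41) and Klf6 (-1.17, SE 0.33). Cebpe, which encodes C/EBP epsilon, did not pass the test: it averaged 57.9 and 55.9 TPM in members against 33.8 and 19.9 TPM (1.10, SE 0.51, adjusted p 0.12). By class its mean was 161 TPM in cycling, 2.65 TPM in intermediate and 9.23 TPM in granule-low cells. Bcl6 and Klf6 no longer passed with rescaled TPM (adjusted p 0.10 for each). Cebpe was above 0 in 41.5% of members, 4.29% of intermediate and 5.33% of granule-low cells, and no granulopoiesis factor was called against intermediate cells (0 of 12 in each direction, and 2 higher and 1 lower with log values averaged over cells).

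Receptors for chemoattractants and microbial patterns were mostly lower in the members: of 27 tested, 2 were higher and 14 lower, with a median of -0.82. Over all tested genes, 5.53% were higher and 14.9% lower. Log values averaged over cells gave 7 higher and 7 lower, so the list as a whole has no stable direction, whereas Clec7a, Clec4d, Tnfrsf1b and Ccr1 were lower in every form. Besides Clec7a, Clec4d, which recognises mycobacterial lipids, averaged 146 and 132 TPM against 1404 and 1254 TPM (-3.25, SE 0.21), Tnfrsf1b, the second TNF receptor, 2.06 and 14.2 TPM against 85.1 and 111 TPM (-3.85, SE 0.59), and Ccr1, a chemokine receptor, 189 and 276 TPM against 731 and 845 TPM (-1.78, SE 0.22). Of 12 tested genes for marrow retention, release and adhesion, 4 were higher and 6 lower, beside 5.53% and 14.9% of all tested genes. Rescaled TPM gave 4 higher and 4 lower, and log values averaged over cells 5 and 4. Selplg was lower (-1.91, SE 0.16), as were Cd101, a marker of mature neutrophils (-3.70, SE 0.39), and Cxcr4, the marrow retention receptor (-3.21, SE 0.86). Itgam was higher, at 463 and 504 TPM against 236 and 305 TPM (0.85, SE 0.23), as was Cd63, a granule membrane tetraspanin (0.93, SE 0.21).

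Inflammatory genes were lower or did not pass the test: of 20 tested, 0 were higher and 12 lower, with a median of -1.25 (0 and 9 with rescaled TPM, 1 and 6 with log values averaged over cells). The shares over all tested genes were 5.53% higher and 14.9% lower. Against intermediate cells the median of the list was -0.31, and against cycling cells 1.52, beside -0.04 and 0.24 for all tested genes. Il1b, the gene of interleukin-1 beta, averaged 548 and 441 TPM in members against 9826 and 12204 TPM (-4.47, SE 0.11). It was above 0 in 33.9% of members, 72.9% of intermediate, 98.7% of granule-low and 18.2% of cycling cells. Ccl6, a CC chemokine, averaged 164 and 420 TPM against 4942 and 4411 TPM (-4.15, SE 0.15), and Ptgs2, the inducible cyclooxygenase, 12.3 and 21.8 TPM against 196 and 163 TPM (-3.37, SE 0.46). Immediate early genes, which cells switch on within minutes of a stimulus or of handling, showed the lowest median of all lists (-1.64): of 20 tested, 0 were higher and 17 lower (0 and 15 with rescaled TPM, 0 and 12 with log values averaged over cells). Besides Atf3 and Egr1, these included Ppp1r15a (-4.65, SE 0.38) and Fosb (-4.40, SE 0.73). Whether these transcripts arose in the tissue or during preparation was not tested.

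Interferon-induced genes were divided, with 1 of 13 higher and 7 lower, beside 5.53% and 14.9% of all tested genes. Rescaled TPM gave 2 higher and 5 lower, and log values averaged over cells 5 higher and 2 lower. Ifitm6 was higher at 2994 and 2715 TPM against 760 and 1054 TPM (1.67, SE 0.13), whereas Ifitm1 and Oasl2 (-2.71, SE 0.48) were lower. Among the NADPH oxidase genes, Cybb and Ncf1 (0.44, SE 0.14) were higher. Of 6 leukotriene and prostaglandin genes, Lta4h was higher at 699 and 745 TPM against 191 and 216 TPM (1.82, SE 0.22). Most cycling cells also held Lta4h, and it was not called against them, so it does not set the members apart from cycling cells. Ptgs2 and Alox5ap (-0.40, SE 0.10), which activates 5-lipoxygenase, were lower, Alox5ap not with rescaled TPM (adjusted p 0.74). Ferritin, the iron store, was lower in both chains: Ftl1 averaged 3758 and 3613 TPM against 10650 and 10517 TPM (-1.52, SE 0.08), and Fth1 differed by -1.42 (SE 0.08). In all, 0 of 6 iron handling genes were higher and 4 were lower (0 and 3 with rescaled TPM, 0 and 2 with log values averaged over cells).

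In 18 tested glycolysis genes 5 were higher, among them Ldha, the lactate dehydrogenase A chain (0.67, SE 0.15, adjusted p 9.4e-05), and 2 were lower (7 higher and 0 lower with rescaled TPM). Log values averaged over cells gave 11 higher and 0 lower. Over all tested genes, 5.53% were higher and 14.9% lower. Of 32 tested genes of the endoplasmic reticulum and secretion, 0 were higher and 0 lower, although 10 were called higher with log values averaged over cells. Of 59 tested respiratory chain genes, 2 were higher and 2 lower (21 higher and 0 lower with log values averaged over cells). Of 15 tested autophagy genes and partners of optineurin, 0 were higher and 3 lower, a share near the 14.9% of all tested genes, with 0 and 1 for rescaled TPM and 1 and 1 for log values averaged over cells. Map1lc3b, an LC3 protein (-1.61, SE 0.19), was lower in all 3 forms, whereas Gabarap (-0.59) turned to 0.37 with log values averaged over cells. Ribosomal protein genes gave no stable direction: of 74 tested, 0 were higher and 13 lower, but with log values averaged over cells 12 were higher and 0 lower.

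**Figure D5:**
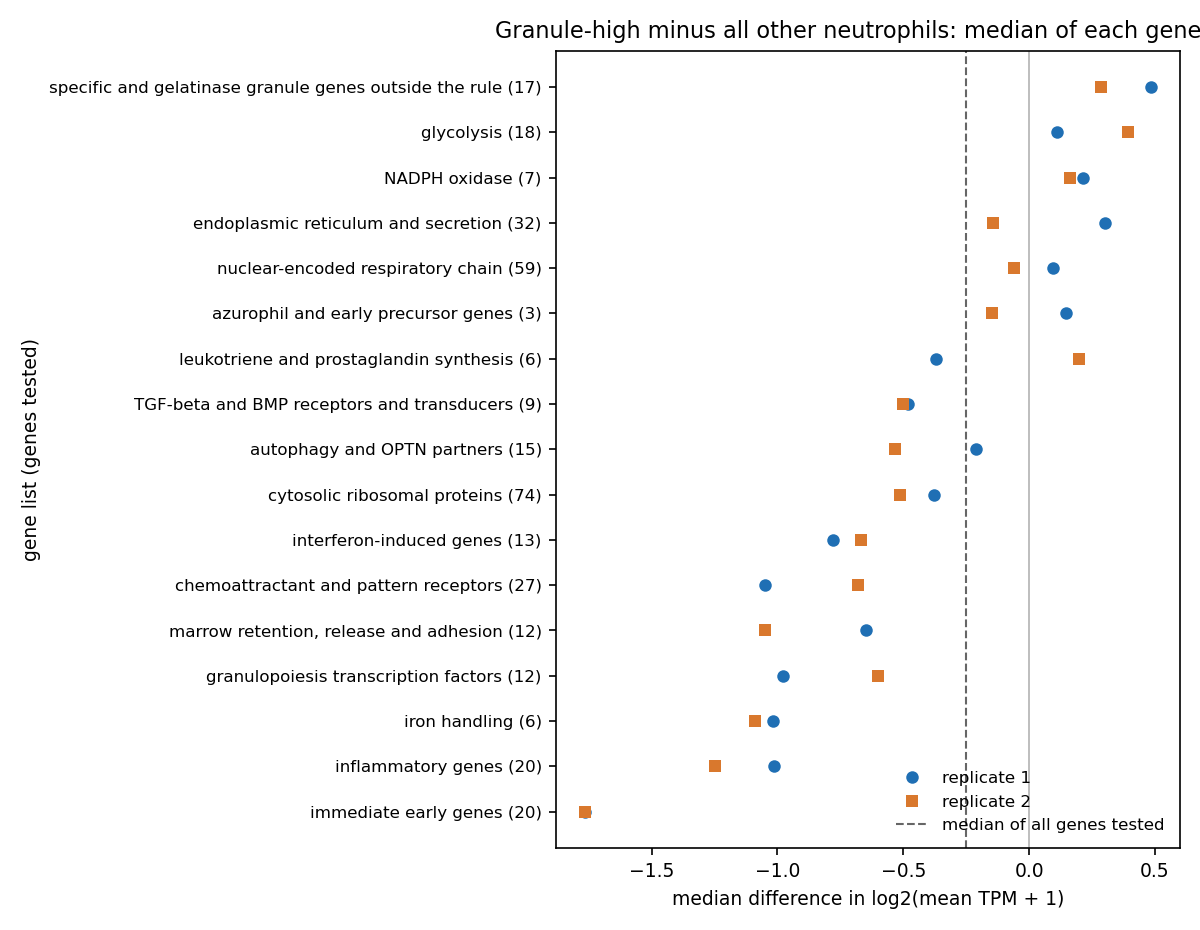
Median difference in log2(mean TPM + 1) between members and all other neutrophils (x axis) for each gene list with at least 3 tested genes (y axis, number tested in parentheses), for replicate 1 (circles) and replicate 2 (squares), with a dashed line at -0.25, the median of all 3997 tested genes. Immediate early genes lie farthest to the left and granule genes outside the rule among the farthest to the right in both replicates.

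Claudin 1 and ALK1, the product of Acvrl1, are encoded by 2 of the 6 marker genes given for the class. Cldn1, a tight junction claudin, averaged 26.7 and 35.1 TPM in members against 3.998 and 9.643 TPM (2.11, SE 0.68, adjusted p 0.014). It was above 0 in 25 members (21.2%), 2 intermediate cells and 0 of 75 granule-low cells. Cycling cells held more of it, at a mean of 44.6 TPM and 50.0% of cells, so Cldn1 does not set the members apart from them (-0.43, SE 0.81, adjusted p 0.85). Cldn15 showed the same pattern, with 33.9% of members, 11.4% of intermediate, 1.33% of granule-low and 50.0% of cycling cells above 0. Of 22 claudin and junction genes in the table, Cldn1 and Cldn15 were the 2 that passed the filter on low values. Cldn1 was above 0 in 13 of the 167 others, fewer than the filter's 10%, so it passed through the members, and it was given as a marker of the class, so its value is a description and no support.

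Acvrl1 was higher also against cycling cells (4.58, adjusted p 0.010), although not with rescaled TPM (adjusted p 0.091), and its difference from intermediate cells was 2.73 (adjusted p 0.070). Like Cldn1, it was given as a marker and passed the filter through the members, so these values are a description and no support. Cldn1 and Acvrl1 were both above 0 in 9 members, only Cldn1 in 16, only Acvrl1 in 28, and neither in 65. Most members thus lacked both transcripts. Among 9 tested receptors and transducers of TGF-beta and BMP signalling, Acvrl1 and Id2, a helix-loop-helix inhibitor and BMP target (1.49, SE 0.47), were higher, and Tgfbr2, the type II TGF-beta receptor (-2.30, SE 0.68), and Id1 (-0.90, SE 0.33) were lower, Id1 not with rescaled TPM (adjusted p 0.16). Log values averaged over cells gave 2 higher and 0 lower. The shares over all tested genes were 5.53% higher and 14.9% lower.

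The nearest class, the intermediate non-cycling cells, differed in fewer genes: 25 of 3997 (0.625%) were higher in the members and 60 (1.5%) lower. Inhba, which encodes the activin A subunit, was listed at 0 in all 70 intermediate cells and averaged 231 and 121 TPM in members, 38.1% of which held it. Cycling cells held more, at 319 TPM on average and in 77.3% of cells. Tmem216, a ciliary transition zone protein, and Cct2, a chaperonin subunit, were also listed at 0 in intermediate cells and averaged 115 and 108 TPM, and 58.7 and 133 TPM, in members. Fcnb averaged 208 and 167 TPM in members against 0 and 1.18 TPM (log2 difference 6.99, SE 0.85, adjusted p 0.030), and Zmpste24 differed by 6.21 (SE 0.97, adjusted p 0.043). Within the members, Inhba, Zmpste24 and Lta4h ran against Mmp8 (mean rho -0.41, -0.42 and -0.43).

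Lower against intermediate cells were Vnn3 (-5.91), Pla2g7 (-5.70), Clec7a (-5.67), Tspan13 (-5.16) and Stfa2l1 (-4.80), all but Stfa2l1 also named against all other neutrophils, with which this comparison shares its cells. Il1b was lower here too, by -3.31 (SE 0.18, adjusted p 0.0088), and so were Srgn (-2.16), Ccl6 (-4.01) and Ftl1 (-1.24). Of 27 receptor genes 0 were higher and 4 lower (0 and 1 with rescaled TPM, 3 and 6 with log values averaged over cells), beside 1.5% of all tested genes lower. Of 20 immediate early genes 0 were higher and 4 lower (0 and 2, and 0 and 6). Of 20 inflammatory genes 0 were higher and 2 lower (0 and 2, and 1 and 5). Lta4h, at 58.1 TPM in intermediate cells, was higher in the members by 3.62 (SE 0.32, adjusted p 0.017), and Orm1, the acute-phase orosomucoid, by 6.02 (SE 0.87, adjusted p 0.042). Rescaled TPM left 12 higher and 20 lower, log values averaged over cells gave 473 higher and 104 lower, and leaving out the cells rich in Rn45s gave 9 and 24. Limma without the trend and robust options called 0 genes in either direction (308 higher and 420 lower at an unadjusted p under 0.05 with those options).

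Cycling neutrophils also held the granule transcripts of the rule other than Mmp8, and against them 132 genes (3.3%) were higher in the members and 64 (1.6%) lower. The lower genes named were Nuf2, a kinetochore protein (-6.85, SE 1.19), Prc1, a midzone microtubule protein (-6.78, SE 1.20), Ptma, prothymosin alpha (-6.46, SE 0.55), Cenpl, a centromere protein (-6.14, SE 1.25), and the histone gene Hist1h2ao (-6.11, SE 0.47), one of several near-identical copies. Ptma averaged 27.4 and 6.59 TPM in members against 1137 and 1477 TPM. Cycling cells were chosen on 16 other cell cycle genes, so lower values of such genes follow from the choice. Fcnb was also lower (-3.22, SE 0.38) with 1737 TPM in cycling cells.

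Higher against cycling cells were Tpd52, Klra17 and Card6, all listed at 0 in the 22 cycling cells, and Cd55, the complement decay-accelerating factor (5.78, SE 1.25), and Ctse, the aspartic protease cathepsin E (5.65, SE 1.21). Tpd52, a vesicle trafficking protein, averaged 91.9 and 135 TPM in members and was above 0 in 31.4% of them. Adam8, a metalloprotease of late granules (3.34, SE 0.51), Ceacam10 (2.95, SE 0.66) and Mmp25 (1.97, SE 0.59), a membrane-bound matrix metalloprotease, were higher as well, as was Mxd1, a MYC antagonist of differentiating cells (2.08, SE 0.40). Of 27 receptor genes 7 were higher and 0 lower (1 and 0 with rescaled TPM, 8 and 2 with log values averaged over cells), beside 3.3% of all tested genes higher. Of 20 immediate early genes 3 were higher and 0 lower (1 and 0, and 4 and 0). Of 20 inflammatory genes 3 were higher and 0 lower (0 and 0, and 3 and 0). Rescaled TPM left 22 higher and 30 lower, log values averaged over cells gave 139 higher and 382 lower, and the fit without the replicate block called 1 and 7. Limma without the trend and robust options called 0 genes here as well (455 higher and 225 lower at an unadjusted p under 0.05 with those options).

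Across all 285 neutrophils, the genes outside the rule whose levels followed the granule score most closely were Ly6i and Ly6a (mean within-plate Spearman rho 0.80 each), Cybb (0.79), 9030619P08Rik (0.78) and Anxa1 (0.78). Ly6i and Ly6a encode related surface antigens of the Ly6 family, whose similar sequences can share reads. Among the members alone the same correlations were weaker, at 0.38, 0.27, 0.41, 0.28 and 0.27. The members span a narrow range of the score because they were chosen on it, which by itself lowers these correlations.

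Markers of other cell types were measured beside these results. At least 3 of 10 monocyte markers were above 0 in 6 members and at least 3 of 15 microglial markers in 1. The summed monocyte markers had medians of 2934 and 2598 TPM in members of replicates 1 and 2. The medians were 2059 and 1954 TPM in cycling, 1989 and 1213 TPM in intermediate and 259 and 40.8 TPM in granule-low cells. Ly6c2, above 0 in 118 members at 2893 TPM on average, made up most of that sum, whereas Ccr2, F13a1 and Ms4a6c averaged 0.147, 0.00839 and 0.329 TPM. Cx3cr1, on the microglial list, was above 0 in 10 members at a mean of 0.129 TPM. No doublet caller was run.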

How the data were processed

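RNA was measured in 326 cells with a column in the deposited table, all matched to their labels by title, and the other 58 of 384 labelled cells were not analysed here. The authors deposited TPM values for 23420 genes, made with RSEM on the mm10 build, per the submitters' processing notes. The aligner, annotation and versions are not stated in the sources at hand. Each cell sums to 1000000, so read depth is unknown. A 0 may mean that a transcript was missed, and 9283 genes are at 0 in every cell. A minimum of 500 genes per cell removed 0 cells.

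TPM was averaged per class and replicate, log2(mean TPM + 1) was tested with trended, robust limma 3.58.1 under R 4.3.3, and p-values were adjusted by Benjamini-Hochberg at 0.05 over all tested genes. Tested genes reached a mean of 5 TPM and were above 0 in 10% of neutrophils or more, without the 30 rule genes. Both classes come from the same replicate, which pairs them, so the replicate is a block. With 1 residual degree of freedom the median prior degrees of freedom of limma were infinite against all other neutrophils, so the own spread of most genes has no weight there. The fit was tested on simulated data, where 163 of 200 changed genes were recovered with 5 false calls. Both simulated classes were drawn at random from the same neutrophils of each replicate, and all changes had the same large size. Real class differences and their spread between replicates were not simulated, so the rate of false calls in these data is not known from it. In the comparison with all others the 12 genes with the largest difference in each direction that passed and had the same sign in 4 plates are named, and 5 in the other comparisons, apart from a few genes that are not reported here. List examples are the called genes with the largest differences, and the other genes in the text were picked after their values were seen. Members and lists were chosen with earlier results of these data known. Alternatives were another pseudocount (0.1 or 10), no filter, mean log values, no replicate block, averages per plate, rescaled TPM, other thresholds, and left-out cells, plates or replicates. Promoters are from RefSeq (GRCm38.p6), where Acvrl1 has no entry, and gene positions from GENCODE (GRCm38). Python 3.11.15 was used for tables.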

Additional observations from a re-analysis of the deposited data

How the results depend on the processing

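Against all other neutrophils (221 higher, 594 lower), mean log values gave 731 higher and 201 lower, rescaled TPM 269 lower, averages per plate 147 higher, and fewer than 3 cell cycle genes allowed 136 higher. Without the replicate block 127 were higher. Leaving out plates gave 64 to 163 higher and 246 to 443 lower, with plates 1 and 3 the lowest and plate 4 at 144 and 381. Against intermediate cells (25 and 60), the counts were 2 and 7 with a pseudocount of 0.1, 210 and 279 with 10, 473 and 104 with mean log values, 71 and 121 per plate, 73 and 153 in cells with at least 1000 genes, 12 and 20 with rescaled TPM, and 9 and 24 without cells rich in Rn45s. Against cycling cells (132 and 64), they were 1 and 8 with a pseudocount of 0.1, 204 higher with 10, 382 lower with mean log values, 1 and 7 without the replicate block, 65 and 36 per plate, and 22 and 30 with rescaled TPM. With no filter on low values 0 genes were called in each comparison (310 higher and 890 lower at an unadjusted p under 0.05 against all others). Limma without trend and robust called 3 and 35 against all others, 0 and 0 against intermediate and 0 and 0 against cycling cells. Under the other alternatives the counts stayed within 1.5 times. The member share of 41.2% was 38.1% with a threshold 1 higher and 33.4% with fewer than 3 cell cycle genes, and 39.2 to 43.2% in single replicates.

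Mean log values reversed the sign of Atp5l (0.29), Cox7a2l (0.13), Gabarap (0.37), Rps12 (0.16) and Slc40a1 (0.68) against all others. The cause was not tested in any of these. Of the genes' values under alternatives with a test, 1275 kept direction and side of the threshold and 335 fell short of it against all others. With 1 replicate left out no residual degree of freedom remains, so counts could not be given, and the 159 differences have no test. TPM keeps no depth, and a gene at 0 in a cell may be undetected.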

Other observations

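Sterol genes were listed after differences between the classes had been seen, so the choice followed the values. Insig1, which holds back the sterol-sensing SREBP pathway when sterol is plentiful and is itself an SREBP target, averaged 35.7 and 33.4 TPM in members of replicates 1 and 2 against 5.15 and 3.94 TPM in the other neutrophils (log2 difference 2.69, SE 0.70, limma adjusted p 0.0012). It was above 0 in 47 members. Over all other neutrophils together Insig1 averaged less than the filter's 5 TPM, so it passed through the members and is no support. Sc5d was lower (-1.30, SE 0.44) but not with rescaled TPM (adjusted p 0.24). Idi1 averaged 37.2 and 29.5 TPM in members against 1.67 and 0.886 TPM and was below the filter on low values.

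Inhba also differed from all other neutrophils, by 1.96 (SE 0.39, adjusted p 1.0e-05), although cycling cells held more of it, and it was the only one of 8 activin, inhibin and follistatin genes that passed the filter. Csf1r, the receptor of macrophage colony-stimulating factor, was above 0 in 16 members (13.6%), 23 intermediate cells (32.9%), 37 granule-low cells (49.3%) and 1 cycling cell (4.55%).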
